A study of Homo sapiens with 4 samples.

Results

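The first step of hematopoietic differentiation was examined by comparing undifferentiated BC1 cells, a human induced pluripotent stem cell (iPSC) line, with APLNR+ cells sorted from BC1 cultures at day 2 of differentiation. APLNR is the apelin receptor, a surface protein of early mesoderm. BC1 cells were grown on Matrigel in mTeSR1 medium, and differentiation was started with activin A and BMP4, at 40 and 50 ng/ml according to the labels (the study's methods give these doses the other way round). The labels do not say that the BC1 cells were sorted. Each population was measured in 1 RNA sequencing library, and these 2 libraries are 2 of the 4 in the series, the others being CD31+CD34+ cells of day 5 and CD43+ cells of day 8. Expression was given as FPKM, fragments per kilobase of transcript, scaled to the mapped fragments of the library, and genes were compared when they had at least 1 FPKM in either library, which kept 15472 of the 17137 genes with at least 1 FPKM in any of the 4 libraries.

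Pluripotent stem cells form a tight epithelial sheet and are kept in their state by the transcription factors POU5F1, SOX2 and NANOG. Activin A and BMP4 imitate the Nodal and BMP signals that, together with Wnt and FGF signals, form the primitive streak of the embryo, where epithelial cells lose their junctions, leave the sheet and become mesoderm. Some of this mesoderm later gives rise to heart, vessels and blood.

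Because each population had 1 library, the differences have no replicate check, and neither tests nor p-values were computed. Values were compared on the scale of log2(FPKM + 1), and differences are always APLNR+ minus BC1. In what follows, a gene rose or fell when it differed by at least 2 on this scale, and other differences are given as values. The fragments behind each value were estimated from the steps between low FPKM values, which gave 19700000 mapped fragments for BC1 and 21400000 for APLNR+. For a transcript of 2000 bases, 1 FPKM then stood for 34.3 fragments in BC1 and 37.2 fragments in APLNR+. Ratios of FPKM are given with exact 95% intervals from these fragments, which cover counting error only while cultures and sorts may vary more. In bulk samples such as these, fewer cells of a type and less RNA per cell cannot be told apart.

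The genes of the sorting marker and of the stage markers were examined first. APLNR itself (chromosome 11, 57233577 to 57237314 on GRCh38) was at 0.782 FPKM in BC1 and at 1073 FPKM in APLNR+, a ratio of 1372 (988 to 1918). GATA6, a zinc finger transcription factor of mesoderm and endoderm, was at 0.0434 FPKM in BC1, which is about 2 fragments, and at 363 FPKM in APLNR+, a ratio of 8358 (2625 to 78303). MIXL1, a homeobox factor of the primitive streak, was at 0.931 FPKM in BC1 and at 474 FPKM in APLNR+. All 3 genes were thus low in BC1 and high in APLNR+. SOX2 went the other way, from 172 FPKM in BC1 to 0.766 FPKM in APLNR+, a ratio of 224 (162 to 318). The label of the sorted cells and its 4 markers point the same way in these libraries. This is no independent check of the label. APLNR was the sorting marker, and the markers were chosen with earlier results of these data known. The loss of pluripotency factors was uneven. NANOG fell from 23.6 FPKM to 0.957 FPKM, whereas POU5F1 was still at 573 FPKM in APLNR+, against 1997 FPKM in BC1, a difference of -1.80.

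Among all 15472 genes, 460 rose (2.97%) and 393 fell (2.54%). With a difference of at least 1 in place of 2, 1568 genes were higher (10.1%) and 1597 were lower (10.3%) in APLNR+. The median difference was -0.007, and 79.5% of genes differed by less than 1. As examples of genes next to these limits, EVX1-AS, at 0 and 3.01 FPKM, was just counted as a rise, and TIPARP, at 1.02 and 7.08 FPKM, was just left out. IPCEF1, at 0.523 FPKM in BC1 and 1 FPKM in APLNR+, had the lowest level among the genes kept. Most genes lay near the diagonal in the plot of both libraries, and the genes that rose included several that went from under 1 FPKM to the upper range of expression.

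**Figure D1:**
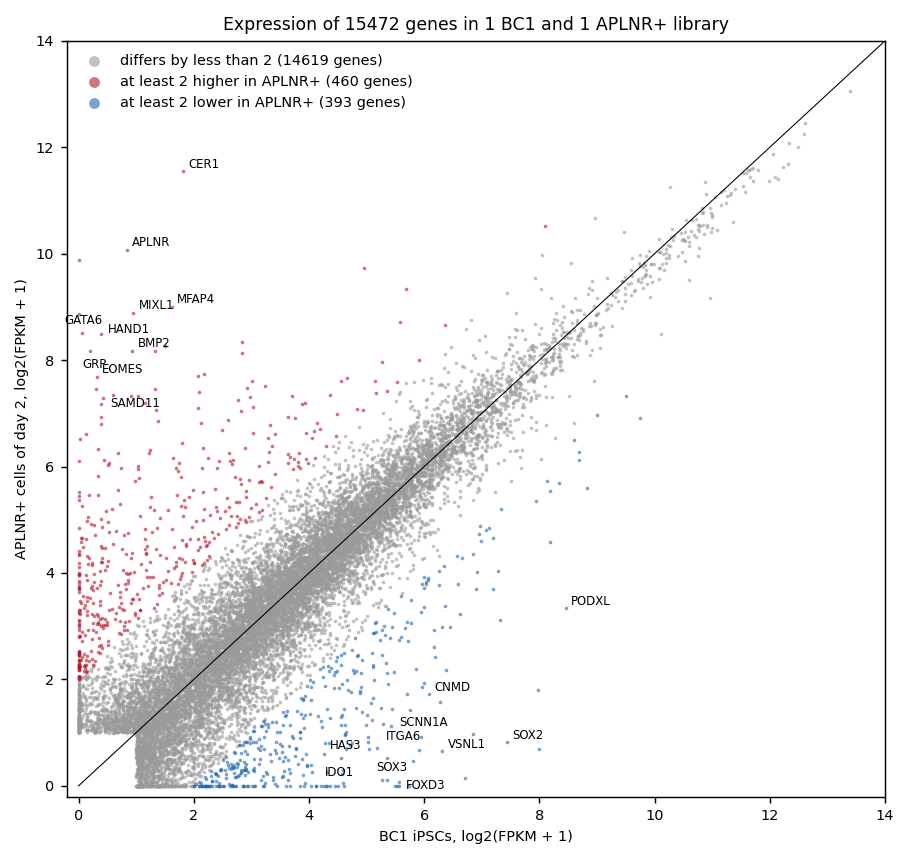
Expression of 15472 genes in BC1 (x axis) and APLNR+ (y axis), both as log2(FPKM + 1), 1 library each; each point is a gene, the line marks equal values and protein-coding genes with large differences are named. The 460 genes that rose lie above the line, with CER1 and APLNR at the top, and the 393 genes that fell lie below it, with SOX2 and PODXL at the right.

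The largest rise of a protein-coding gene that reached 10 FPKM was that of CER1, a secreted inhibitor that binds Nodal and BMP proteins. CER1 was at 2.50 FPKM in BC1 and at 2991 FPKM in APLNR+, a ratio of 1199 (900 to 1630). The 15 largest rises held the transcription factor genes HAND1 (0.309 to 357 FPKM), EOMES (0.244 to 205 FPKM) and GATA4 (0.311 to 122 FPKM). They also held genes that are not stage markers in the usual sense. GRP, which encodes gastrin-releasing peptide, was at 0.146 FPKM, about 1 fragment, and at 286 FPKM, a ratio of 1966 (351 to 77301). MFAP4, a glycoprotein of the elastic microfibrils of the matrix, was at 2.08 FPKM and at 511 FPKM. CYP26A1, the enzyme that breaks down retinoic acid, was at 1.51 FPKM and at 286 FPKM. PLXNA2, a receptor for semaphorins, was at 0.513 FPKM and at 161 FPKM. SAMD11, which encodes a nuclear protein with a SAM domain, was at 0.346 FPKM and at 156 FPKM. The last 5 genes were at 2.08 FPKM or less in the iPSCs and at 156 FPKM or more in the sorted cells.

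The 15 largest falls held, besides SOX2, the transcription factor genes FOXD3 (46.2 to 0.0511 FPKM), SOX3 (40.0 to 0.0747 FPKM) and HES3 (18.5 FPKM to 0). For HES3 the fall was at least 57.7-fold, computed against a floor of 3 fragments. PODXL, the sialomucin that carries the TRA-1 antigens of pluripotent cells, fell from 351 FPKM to 9.10 FPKM, a ratio of 38.6 (34.7 to 43.0). VSNL1, a neuronal calcium sensor, fell from 78.6 FPKM to 0.572 FPKM. SCNN1A, the alpha subunit of the epithelial sodium channel, fell from 60.3 FPKM to 0.884 FPKM. IDO1, which degrades tryptophan, fell from 23.2 FPKM to 0.0322 FPKM. CNMD, a cartilage matrix glycoprotein, fell from 66.6 FPKM to 2.30 FPKM, and ADM, the vasoactive peptide adrenomedullin, fell from 52.7 FPKM to 1.70 FPKM. TRIML2, a member of the TRIM family, fell from 42.0 FPKM to 1.17 FPKM. Surface, secreted and channel proteins thus stood beside transcription factors among the largest losses.

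Signalling genes were examined by pathway. Of 24 BMP pathway genes compared, 10 rose and 1 fell, with a median difference of 1.25 (0.96 without the filter of 1 FPKM). The ligand genes BMP2 (0.912 to 287 FPKM) and BMP4 (1.83 to 305 FPKM) rose together with genes of extracellular antagonists and modulators, namely BMPER (0.317 to 144 FPKM) and NOG (0.155 to 29.1 FPKM). Inhibitors inside the cell or at its membrane rose as well. SMAD6, an inhibitory SMAD, was at 3.21 FPKM and at 206 FPKM, and BAMBI, a decoy receptor, was at 14.3 FPKM and at 145 FPKM. The homeobox genes MSX1 (0.0907 to 24.0 FPKM) and MSX2 (0.307 to 31.2 FPKM), which are known BMP targets, rose. The ID genes, also BMP targets, differed among themselves. ID2 rose from 14.9 to 65.7 FPKM, ID4 was at 3.95 and 11.03 FPKM, ID3 at 35.5 and 42.4 FPKM, and ID1 was lower in APLNR+, at 49.5 FPKM against 108 FPKM. The receptor gene BMPR1A was at 12.9 FPKM against 34.2 FPKM. CHRDL1, a chordin-like antagonist, was the BMP pathway gene that fell, from 4.97 to 0.368 FPKM.

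Of 22 genes of the Nodal and activin pathway, 4 rose and none fell, with a median of 0.44. Those that rose included CER1, FST (3.47 to 44.8 FPKM), the activin-binding protein follistatin, and CFC1 (0 to 3.75 FPKM), a Nodal co-receptor. CFC1 has a near-identical copy in the genome, so its value is uncertain. The ligand gene NODAL was at 5.77 FPKM in BC1 and 1.41 FPKM in APLNR+, and its antagonist LEFTY1 at 17.9 and 4.27 FPKM. TDGF1, the main Nodal co-receptor of pluripotent cells, was at 271 FPKM and 260 FPKM, a ratio of 1.04 (1.01 to 1.08). The antagonists of the list thus divided, with CER1 and FST higher and LEFTY1 lower in APLNR+.

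The Wnt pathway held the most genes past the limit of any signalling list, but it was also the longest of them, with 38 genes compared. A larger share rose in the BMP list (10 of 24). Over all genes, 2.97% rose and 2.54% fell. In the Wnt list 13 genes rose and 4 fell, with a median of 1.39 (0.46 without the filter of 1 FPKM). Ligands, receptors, nuclear factors and inhibitors were all among them. WNT5A rose from 0.876 to 160 FPKM, and ROR2, a tyrosine kinase receptor for WNT5A, from 1.36 to 78.3 FPKM. WNT3 rose from 0.328 to 7.86 FPKM and WNT4 from 0.113 to 18.9 FPKM. Some targets and feedback inhibitors of the beta-catenin branch rose too, as SP5 (0.258 to 55.6 FPKM), LGR5 (0.106 to 30.4 FPKM), NKD1 (1.38 to 41.8 FPKM), DKK1 (0.175 to 17.3 FPKM) and NOTUM (0.417 to 16.5 FPKM). AXIN2, another feedback inhibitor and common readout of this branch, was at 9.30 and 11.5 FPKM, a ratio of 1.24 (0.989 to 1.54), and ZNRF3, which removes Wnt receptors, was at 7.96 and 6.86 FPKM. Members of the same family went in opposite directions. Among the frizzled receptors, FZD8 rose from 5.01 to 117 FPKM and FZD5 fell from 13.4 to 1.02 FPKM. Among the nuclear partners of beta-catenin, TCF7L1, known as a repressor in pluripotent cells, fell from 93.9 to 18.9 FPKM, whereas LEF1 rose from 0.111 to 8.20 FPKM and TCF7 from 3.22 to 23.8 FPKM. The secreted inhibitors SFRP1 (159 to 7.72 FPKM) and SFRP2 (244 to 39.7 FPKM) fell.

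Among 27 FGF pathway genes, 3 rose and 2 fell, with a median of 0.04. The ligand genes FGF8 (1.12 to 17.1 FPKM), FGF17 (0.109 to 8.80 FPKM) and FGF10 (0 to 7.52 FPKM) rose, whereas FGF2, the ligand used to maintain human pluripotent cells, was at 55.9 FPKM in BC1 and 23.7 FPKM in APLNR+. DUSP6, a phosphatase induced by FGF and ERK signalling, fell from 71.1 to 6.64 FPKM, and FGFBP3, an FGF-binding protein, fell from 56.8 to 3.61 FPKM. Other genes of the list linked to FGF and ERK signalling differed in direction. DUSP4 (2.32 and 8.85 FPKM) and SPRY4 (34.1 and 60.1 FPKM) were higher in APLNR+. SPRY2 (14.01 and 14.12 FPKM) was near its level in BC1. ETV4 (116 and 62.6 FPKM) and ETV1 (23.05 and 5.21 FPKM) were lower in APLNR+.

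**Figure D2:**
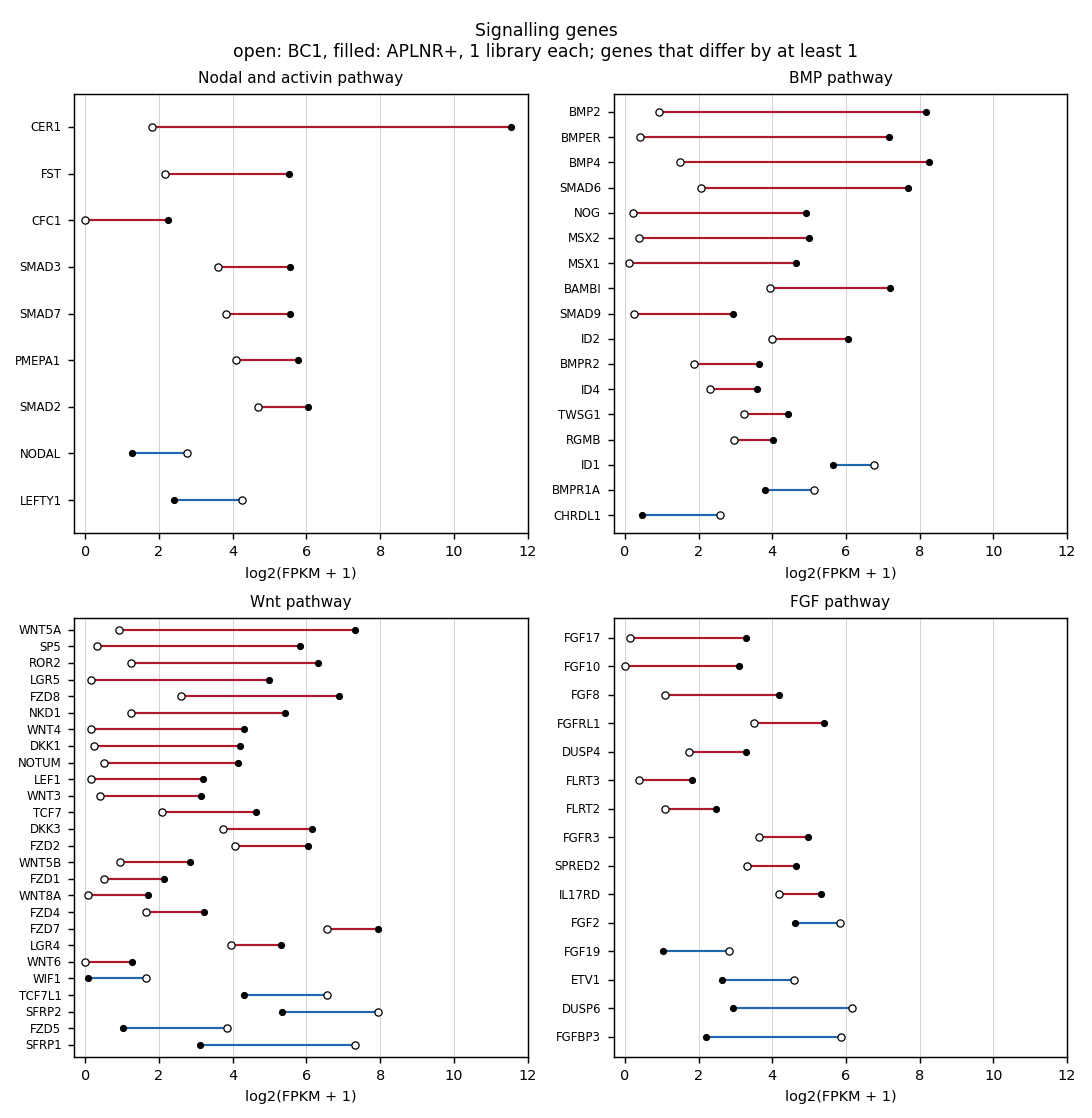
Levels in BC1 (open circles) and APLNR+ (filled circles) of genes of 4 signalling pathways that differed by at least 1, as log2(FPKM + 1) on the x axis, 1 library each; red lines are higher and blue lines lower in APLNR+. BMP2, BMP4 and their antagonists BMPER and NOG rose together, and frizzled and TCF genes lie at both ends of the Wnt panel.

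Smaller lists of other pathways held 1 or 2 genes past the limit in a direction, out of 9 to 26 compared. Over all genes, 2.97% rose and 2.54% fell, so these are lists with few genes past the limit. In the Notch list, 1 of 19 genes rose and 1 fell. They were DLL3, an inhibitory ligand (7.17 to 138 FPKM), and LFNG, a glycosyltransferase that modifies Notch (18.9 to 1.72 FPKM). In the retinoic acid list, 1 of 16 rose, CYP26A1, and 1 fell, the binding protein gene CRABP1 (281 to 51.8 FPKM), while CRABP2 was at 104 and 384 FPKM. In the Hedgehog list, PTCH1, the receptor, rose from 2.60 to 17.4 FPKM, but GLI1, whose transcription commonly follows Hedgehog signalling, was at 9.47 and 3.02 FPKM. Among 19 Hippo genes and YAP targets, 6 were higher and 3 lower by at least 1, and TEAD1 rose (15.99 to 101 FPKM). The targets divided, with AMOTL1 (7.58 and 22.8 FPKM) and PTPN14 (12.5 and 29.04 FPKM) higher and CTGF (29.3 and 7.40 FPKM) and CYR61 (35.8 and 9.34 FPKM) lower in APLNR+. Within the VEGF, PDGF, KIT and IGF list, 1 of 26 genes rose and 2 fell. The receptor PDGFRA rose from 1.37 to 14.2 FPKM and its ligand gene PDGFA fell from 14.6 to 0.310 FPKM, and ERBB2 fell from 138 to 27.6 FPKM.

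A receptor and its ligand also moved apart in the apelin system. APELA, which encodes the peptide ligand Elabela of the apelin receptor, fell from 22.7 to 0.171 FPKM, a ratio of 133 (54.5 to 396), while APLNR rose. The other ligand gene, APLN, was under 1 FPKM in both libraries, at 0.569 and 0.174 FPKM, and was at 7.92 FPKM in the CD31+CD34+ library. In the same list of receptors and peptides, 4 of 19 genes rose and 3 fell. ACKR3, an atypical chemokine receptor, rose from 0.642 to 38.5 FPKM and EDNRA, an endothelin receptor, from 0.732 to 6.65 FPKM. CXCL5, a chemokine, fell from 6.86 to 0.880 FPKM, and F2RL1, a protease-activated receptor, fell from 7.17 to 0.773 FPKM.

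Guidance molecules, which steer axons and migrating cells, were among the groups with the most genes past the limit. In the list of Slit, Robo, netrin, semaphorin and plexin genes, 8 of 30 rose and 3 fell, with a median of 0.24. Besides PLXNA2, the co-receptors NRP1 (0.373 to 21.1 FPKM) and NRP2 (11.4 to 120 FPKM), the ligands SEMA6D (0.498 to 36.0 FPKM) and SEMA5A (1.24 to 27.3 FPKM) and the netrin NTN4 (0.303 to 21.8 FPKM) rose. SEMA6A (119 to 11.98 FPKM), SEMA3A (13.3 to 0.874 FPKM) and the netrin receptor UNC5D (17.4 to 1.33 FPKM) fell. Of 17 ephrin and Eph receptor genes, 4 rose and 1 fell. The receptors EPHB3 (2.46 to 85.8 FPKM) and EPHA4 (2.53 to 32.8 FPKM) and the ligands EFNA2 (16.2 to 70.9 FPKM) and EFNB1 (2.31 to 12.9 FPKM) rose, and EPHA1 fell from 80.0 to 16.6 FPKM. Both groups therefore exchanged some members for others.

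Epithelial genes were lower as a group. Of 38 junction and polarity genes compared, none rose and 13 fell, 21 were lower by at least 1, and the median was -1.40. EPCAM, an epithelial adhesion molecule, fell from 81.8 to 3.51 FPKM, a ratio of 23.3 (19.1 to 29.1). CRB3, a protein of the apical polarity complex, fell from 12.7 to 0.622 FPKM, a ratio of 20.5 (10.1 to 43.5). The tight junction genes OCLN (7.83 to 0.598 FPKM), CLDN7 (46.2 to 5.71 FPKM), CLDN4 (18.5 to 0.751 FPKM), CLDN3 (11.7 to 0.691 FPKM) and MARVELD3 (24.0 to 1.02 FPKM) fell, as did ESRP1 (37.7 to 6.66 FPKM), a splicing factor of epithelial cells. TJP1, a scaffold of tight junctions, was at 17.6 and 10.1 FPKM. CLDN6, the most abundant of the claudin genes named here, fell from 409 FPKM but remained at 68.3 FPKM. CLDN7 was at 41.7 FPKM in the CD31+CD34+ library, close to its level in BC1. Of 8 transcription factors of the epithelial-mesenchymal transition (EMT), 4 rose and 1 fell. SNAI1 (2.95 to 45.8 FPKM), SNAI2 (1.09 to 32.8 FPKM), ZEB2 (0.0135 to 8.92 FPKM) and TWIST1 (0.772 to 14.99 FPKM) rose, and SNAI3 fell from 5.72 to 0.349 FPKM. ZEB1 was at 0.0798 and 3.17 FPKM.

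SNAI and ZEB proteins are known to bind the E-box letters CAGGTG, and to repress epithelial genes through them. These letters, on either strand (the other strand reads CACCTG), were therefore looked for in the 250 bases before each transcription start given by RefSeq for GRCh38.p14. They were in 17.5% of all 35116 such sequences. Not every gene had a sequence. It was available for 21 of 38 epithelial junction and polarity genes compared, 221 of 393 genes that fell and 282 of 460 that rose. The others are not in the shares here or below. Counted by gene, at least 1 start had the letters in 2200 of the 10475 compared genes with a sequence (21%). The letters were in 14 of 21 epithelial genes (66.7%), in 83 of 221 genes that fell (37.6%) and in 47 of 282 genes that rose (16.7%). Counted by sequence, since some genes have several starts, the shares were 16% of the compared genes' sequences, 48.4% of the epithelial, 26.5% of the fallen and 11.3% of the risen genes' sequences. A match of letters is a description and not a binding site, and where a gene has several starts the one with the most matches is shown. The sequences below, in the direction of the gene and ending at the base before the start, show how the letters lie in 3 tight junction and polarity genes that fell, with the letters in capitals. CRB3 (chr19:6464021-6464270, plus strand) holds them 5 times, CLDN7 (chr17:7262479-7262728, minus strand) 4 times and OCLN (chr5:69492297-69492546, plus strand) once.
CRB3: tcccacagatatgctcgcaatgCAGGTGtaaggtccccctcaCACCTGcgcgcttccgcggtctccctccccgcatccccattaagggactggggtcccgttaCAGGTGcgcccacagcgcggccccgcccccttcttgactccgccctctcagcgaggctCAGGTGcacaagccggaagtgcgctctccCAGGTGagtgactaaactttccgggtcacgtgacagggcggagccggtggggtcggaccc
CLDN7: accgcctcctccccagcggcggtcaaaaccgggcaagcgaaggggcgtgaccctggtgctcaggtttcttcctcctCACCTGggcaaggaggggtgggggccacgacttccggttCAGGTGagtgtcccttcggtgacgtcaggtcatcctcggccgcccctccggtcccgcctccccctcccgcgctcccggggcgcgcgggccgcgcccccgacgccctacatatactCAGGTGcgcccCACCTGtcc
OCLN: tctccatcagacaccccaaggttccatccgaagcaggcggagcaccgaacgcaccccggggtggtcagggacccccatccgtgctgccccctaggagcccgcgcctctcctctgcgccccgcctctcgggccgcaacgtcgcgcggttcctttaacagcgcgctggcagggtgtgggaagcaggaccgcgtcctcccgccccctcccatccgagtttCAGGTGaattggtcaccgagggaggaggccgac
In CRB3 the matches began 228, 208, 147, 89 and 60 bases before the start, in CLDN7 they began 174, 135, 20 and 9 bases before it, and in OCLN 33 bases before it.

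The same was done for genes that rose. CTTTGAT is a motif of the TCF and LEF factors of the Wnt pathway, which reads ATCAAAG when it lies on the other strand. TGTGNATT, where N is any base and which reads AATNCACA on the other strand, is a motif of FOXH1, a partner of the SMAD proteins that carry the Nodal and activin signal. The TCF motif was in 2.26% of all sequences and the FOXH1 motif in 2.89%. By gene, the TCF motif was in 10 of 282 genes that rose (3.55%), in 9 of 221 genes that fell (4.07%) and in 1.81% of the compared genes. The FOXH1 motif was in 11 of 282 genes that rose (3.9%), in 7 of 221 that fell (3.17%) and in 2.34% of the compared genes. Both motifs were thus rare, and about as frequent before genes that fell as before genes that rose. The 3 sequences shown are those of MIXL1 (chr1:226223414-226223663, plus strand), SP5 (chr2:170715087-170715336, plus strand) and CER1 (chr9:14722734-14722983, minus strand), which rose and hold at least 1 of these motifs, in capitals. MIXL1 and SP5 hold each motif once and CER1 holds the FOXH1 motif once.
MIXL1: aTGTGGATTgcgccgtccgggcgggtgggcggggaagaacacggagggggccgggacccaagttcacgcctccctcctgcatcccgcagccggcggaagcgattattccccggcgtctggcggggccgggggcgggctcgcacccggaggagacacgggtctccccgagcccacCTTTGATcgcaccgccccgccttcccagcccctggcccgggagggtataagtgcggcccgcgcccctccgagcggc
SP5: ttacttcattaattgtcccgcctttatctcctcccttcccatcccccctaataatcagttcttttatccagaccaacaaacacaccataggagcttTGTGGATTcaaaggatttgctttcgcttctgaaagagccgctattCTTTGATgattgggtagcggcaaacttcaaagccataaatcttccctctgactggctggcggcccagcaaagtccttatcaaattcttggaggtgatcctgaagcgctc
CER1: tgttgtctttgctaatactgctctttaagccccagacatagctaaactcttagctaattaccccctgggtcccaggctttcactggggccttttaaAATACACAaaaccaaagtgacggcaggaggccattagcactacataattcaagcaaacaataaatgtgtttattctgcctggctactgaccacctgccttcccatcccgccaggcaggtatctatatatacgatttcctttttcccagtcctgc
In MIXL1 the FOXH1 motif began 249 bases and the TCF motif 76 bases before the start. In SP5 they began 154 and 109 bases before it, and in CER1 the FOXH1 motif began 154 bases before it. On either strand, the octamer ATGCAAAT, known from POU5F1 sites, was in 10 of 221 genes that fell (4.52%) and 7 of 282 that rose (2.48%), and the GATA motif AGATAA in 23 (10.4%) and 35 (12.4%), against 1.76% and 7.01% of the compared genes.

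Adhesion receptors were exchanged within families. Among 18 cadherins, 4 rose and 3 fell. The classical cadherins of epithelia, CDH1 (70.9 to 5.14 FPKM) and CDH3 (99.6 to 18.6 FPKM), fell together with PCDH1 (42.4 to 1.71 FPKM). CDH11, a mesenchymal cadherin, rose from 2.30 to 59.1 FPKM, and the protocadherins PCDH10 (3.72 to 70.6 FPKM), PCDH7 (1.37 to 17.5 FPKM) and PCDH17 (0.172 to 5.79 FPKM) rose. CDH2, the neural and mesenchymal cadherin, was at 12.8 FPKM in BC1 and 45.3 FPKM in APLNR+, a difference of 1.74. Of 13 integrins, 2 rose and 2 fell. ITGA5, the alpha subunit of the fibronectin receptor, rose from 5.84 to 150 FPKM, a ratio of 25.8 (22.8 to 29.2), and ITGA9, another alpha subunit, rose from 1.58 to 27.7 FPKM. ITGA6, an alpha subunit of laminin receptors, fell from 35.1 to 0.647 FPKM, a ratio of 54.3 (40.5 to 75.9), and ITGA7, also of laminin receptors, fell from 47.7 to 10.9 FPKM. ITGB1, the beta subunit that all these alpha subunits can pair with, was at 104 and 98.1 FPKM, a ratio of 1.06 (0.953 to 1.19).

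Genes of the extracellular matrix gave the largest gain in summed level among the adhesion lists. Of 52 matrix protein genes, the 45 compared together held 1507 FPKM in BC1 and 4493 FPKM in APLNR+. Of these 45, 7 rose and 3 fell, with a median of 0.31. Fibrillar collagen genes COL5A1 (6.13 to 325 FPKM) and COL5A2 (8.44 to 182 FPKM), the microfibril gene FBN2 (6.61 to 176 FPKM), COL6A1 (81.2 to 401 FPKM) and SPARC, a matrix glycoprotein (274 to 1459 FPKM), rose. Hyaluronan synthases were exchanged, since HAS2 rose from 1.23 to 145 FPKM and HAS3 fell from 32.1 to 0.625 FPKM. HAPLN3, which links hyaluronan to proteoglycans, and FREM2, a basement membrane protein, also fell, to 5.64 FPKM from 51.9 FPKM and to 0.359 FPKM from 6.28 FPKM. FN1, which encodes fibronectin, was at 23.6 and 68.4 FPKM. The list of matrix proteases, their inhibitors and crosslinkers held 566 FPKM and 1934 FPKM in sum over the genes compared. Of this, SERPINE2 alone, an inhibitor of thrombin and urokinase, was 29.9 and 851 FPKM. In that list 5 of 30 genes rose and 1 fell, and ADAM19 (6.87 to 158 FPKM), the membrane protease MMP14 (45.4 to 191 FPKM) and TIMP3 (1.10 to 8.94 FPKM) were among those that rose. TIMP4 fell from 4.38 to 0.134 FPKM. Among 28 proteoglycan genes and their enzymes, 4 rose, all of them heparan sulfate enzymes, and 3 fell. The sulfotransferases HS3ST3A1 (3.23 to 137 FPKM), HS3ST1 (0.209 to 28.97 FPKM) and HS6ST1 (34.2 to 193 FPKM) and the sulfatase SULF2 (22.5 to 194 FPKM) rose. GPC3, a glypican, fell from 62.5 to 9.23 FPKM, and the sulfotransferase genes CHST7 and CHST9 fell to 1.29 FPKM from 9.78 FPKM and to 0.183 FPKM from 6.10 FPKM.

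In the cytoskeleton, VIM, the mesenchymal filament vimentin, rose from 46.5 to 417 FPKM, while the keratins of simple epithelia differed among themselves. KRT8 was at 200 and 262 FPKM, KRT19 at 79.8 and 229 FPKM and KRT18 at 180 and 99.2 FPKM. KRT7 fell from 8.03 to 0.0842 FPKM. Of 35 contractile and actin genes, 4 rose and 2 fell. The cardiac and embryonic light chain genes MYL7 (0.971 to 51.7 FPKM) and MYL4 (0 to 14.5 FPKM), FLNC, an actin crosslinker of muscle (3.49 to 80.9 FPKM), and RHOB, a small GTPase (6.44 to 80.4 FPKM), rose. TNNT2, the cardiac troponin T often used as a heart marker, fell from 22.5 to 1.21 FPKM, and ACTA1, skeletal actin, fell from 11.7 to 0.190 FPKM. The muscle genes of the list thus divided between the libraries.

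**Figure D3:**
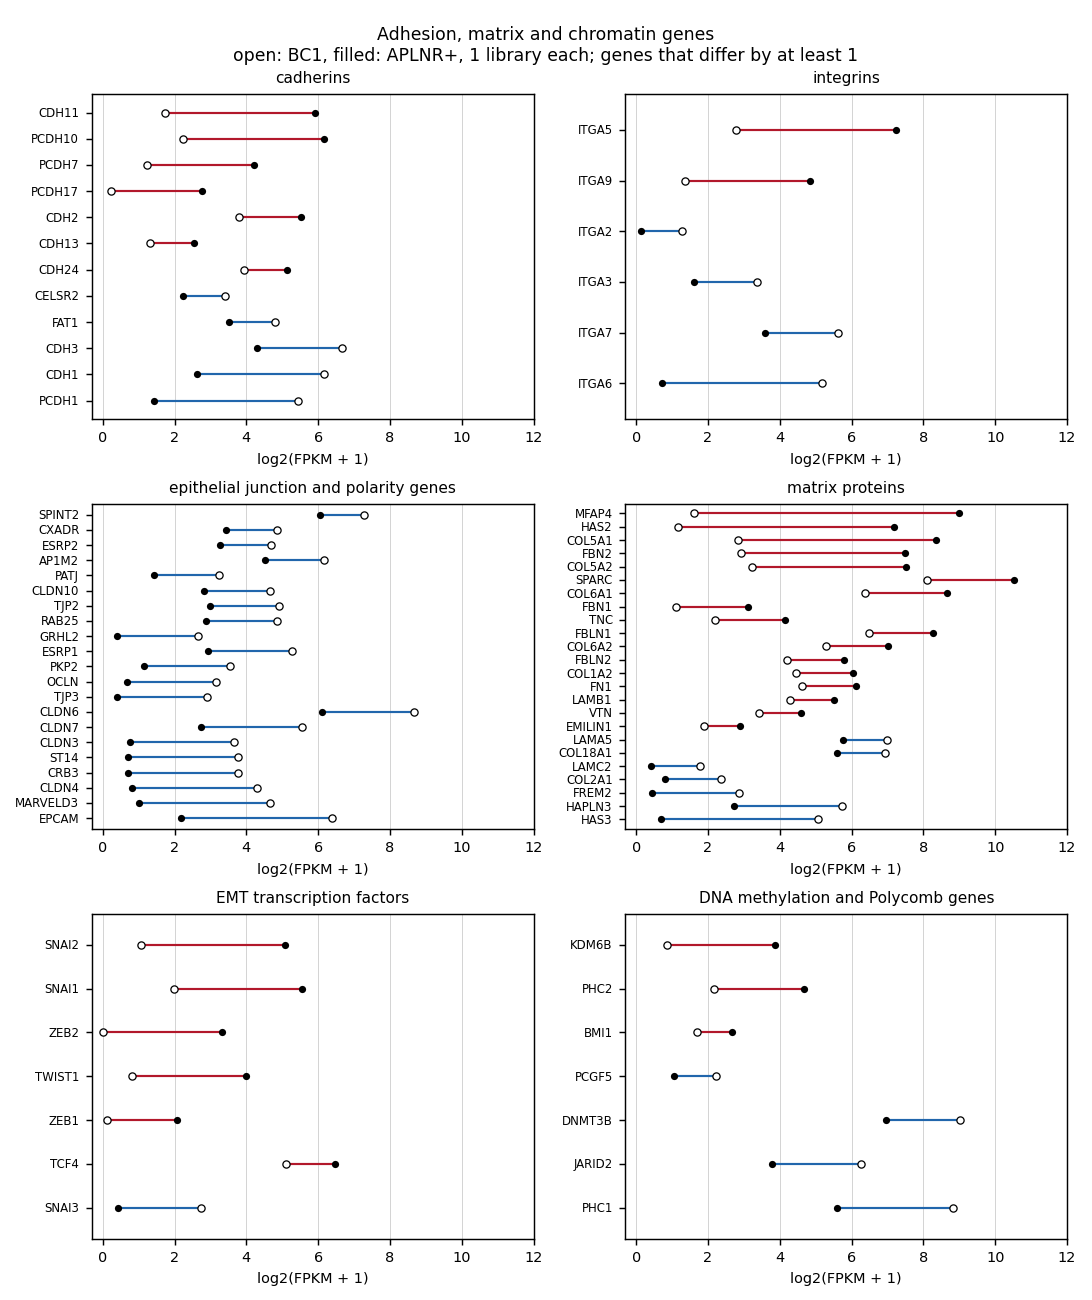
Levels in BC1 (open circles) and APLNR+ (filled circles) of genes of 6 lists that differed by at least 1, as log2(FPKM + 1) on the x axis, 1 library each; red lines are higher and blue lines lower in APLNR+. The epithelial panel holds blue lines only, while cadherins, integrins and matrix proteins hold both colours.

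Regulators of several mesoderm subtypes rose. Of 27 cardiac and lateral mesoderm genes, 15 rose and none fell, with a median of 2.32 (1.54 without the filter of 1 FPKM). Examples besides GATA6, HAND1 and GATA4 were MESP1 (0.0963 to 96.8 FPKM), TBX3 (0.354 to 69.0 FPKM) and IRX3 (1.51 to 175 FPKM). Of 26 paraxial and intermediate mesoderm genes, 9 could be compared, with a median of 2.52 (0.14 without the filter). Of these, 5 rose, among them LHX1 (0.0160 to 90.1 FPKM), TBX6 (2.21 to 17.5 FPKM) and EVX1 (0 to 7.72 FPKM), and 2 were lower by at least 1. LHX1 and TBX6 are also in the list of nascent mesoderm markers. Of 39 HOX genes only 6 reached 1 FPKM, all in the HOXB cluster on chromosome 17. HOXB2 (0.115 to 17.0 FPKM), HOXB3 (0.0257 to 24.2 FPKM) and HOXB6 (0.0362 to 22.8 FPKM) rose, and HOXB9, HOXB5 and HOXB8 were listed at 0 in BC1 and at 2.75, 2.07 and 1.37 FPKM in APLNR+. Among 17 genes of the hemangioblast, the common precursor of vessels and blood, 7 rose. GATA2 (0.126 to 32.0 FPKM) and SOX17 (0.171 to 16.6 FPKM) were the highest of the transcription factors among them, and RUNX1 rose from 0.0962 to 4.15 FPKM. KDR, the VEGF receptor of this precursor, was already at 33.1 FPKM in BC1 and at 70.0 FPKM in APLNR+, and CD31+CD34+ cells had 569 FPKM.

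Markers of other cell types that the sort could hold were summed for each library. For 15 pluripotency markers the sum was 4365 FPKM in BC1 and 1413 FPKM in APLNR+, and 8 fell. For 15 nascent mesoderm markers it was 40.4 and 3107 FPKM, and 14 rose. This list includes the stage markers GATA6 and MIXL1 and also APLNR, which the sort selected for and which alone was at 1073 FPKM in APLNR+. For definitive endoderm, 11 of 15 markers could be compared, 2 rose and 1 fell, and the sum was 647 and 630 FPKM. SOX17 and HHEX (0.381 to 7.13 FPKM) were the endoderm markers that rose and CLDN6, also high in BC1, was the one that fell. CLDN6 was at 409 and 68.3 FPKM and thus made up most of the sum in BC1. By at least 1, 4 of the markers were higher and 1 lower. The median was 0.96, with APOA2, an apolipoprotein, at 193 and 470 FPKM, whereas FOXA2 was at 0.522 and 0.588 FPKM and CXCR4 at 0.357 and 0.821 FPKM. For amnion and trophoblast, 6 of 15 could be compared, with GATA2 and GATA3 (0.431 to 30.01 FPKM) as those that rose and KRT7 as the one that fell. The sum was 12.7 and 64.7 FPKM, most of it in APLNR+ from these GATA genes. Of 8 endothelial markers compared, SOX18 rose (0.411 to 7.45 FPKM), and the sum was 25.3 and 28.1 FPKM. By at least 1, 2 of the 8 were higher and 2 lower, the latter being TEK (8.135 and 1.848 FPKM) and TIE1 (6.436 and 1.166 FPKM). Of 7 blood markers, 3 rose, namely RUNX1, KLF1 (0.191 to 7.39 FPKM) and LYL1 (0.411 to 7.16 FPKM), all transcription factors, and the sum was 13.4 and 25.6 FPKM. ITGA2B, the blood marker that was lower by at least 1, was at 10.2 and 3.74 FPKM. PECAM1 and CD34, surface proteins of later stages, were under 1 FPKM in both libraries. Of 7 neural ectoderm markers compared, 3 fell, namely SOX3, POU3F1 (22.4 to 1.46 FPKM) and HESX1 (4.58 to 0.236 FPKM), and RAX rose (0.0759 to 3.84 FPKM), with a median of -1.01. Their sum was nevertheless 140 and 166 FPKM, with OTX2 at 20.5 and 82.8 FPKM. Genes induced by cell dissociation summed to 233 FPKM and 493 FPKM, with a median of 1. Of the 13 compared, 6 were higher by at least 1, among them JUN (4.68 and 17.9 FPKM), EGR1 (2.21 and 11.5 FPKM) and JUND (80.7 and 278 FPKM). JUND was the most abundant of the list in APLNR+. Of the 6, IER3 rose by at least 2 (2.27 to 43.2 FPKM). IER2 was the 1 gene lower by at least 1 (97.3 and 45.7 FPKM). BAG3 was the heat shock gene that rose (9.04 to 109 FPKM). Their part in the other results was not tested.

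Genes expressed in pluripotent cells beyond the core factors fell in large numbers. Of 33 neural and ectodermal genes that such cells express, 16 fell and 3 rose, with a median of -1.22. PTPRZ1, a receptor phosphatase of neural precursors, fell from 63.0 to 2.80 FPKM, and DCLK1, a microtubule-associated kinase, from 10.6 to 0.118 FPKM. NTS, which encodes the peptide neurotensin, went the other way, from 50.5 to 645 FPKM, as did SALL1, a zinc finger factor (16.7 to 112 FPKM). Among surface proteins, 8 of 26 fell and 2 rose. CD24 (861 to 119 FPKM), THY1 (410 to 76.3 FPKM), CD9 (119 to 15.1 FPKM) and PROM1 (28.9 to 3.34 FPKM) fell, and the adhesion molecules NCAM1 (2.11 to 71.0 FPKM) and CD44 (2.03 to 13.1 FPKM) rose. Of 33 ion channel and transporter genes, 4 fell and 1 rose, with a median of -0.92. KCNN2, a potassium channel, fell from 8.30 to 0.614 FPKM, while CLCN4, a chloride and proton exchanger, rose from 1.92 to 15.5 FPKM. The glycan list, with the enzymes of stage-specific surface antigens, divided, since B3GALT5, the galactosyltransferase of the SSEA-3 and SSEA-4 precursors, fell from 6.73 to 0.203 FPKM and ST8SIA1, the GD3 synthase, rose from 1.94 to 35.4 FPKM.

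Long noncoding RNAs of pluripotent cells included the largest fall among all genes compared, that of ESRG. Of 18, 7 fell and none rose, with a median of -1.41. ESRG fell from 253 to 0.615 FPKM, a difference of -7.29, LINC00678 from 115 to 0.975 FPKM and LNCPRESS1 from 55.1 to 0.378 FPKM. FOXD3-AS1 fell from 252 to 2.47 FPKM beside its neighbour FOXD3, and it is not stated whether counting used strand, so reads of overlapping genes cannot be told apart. In contrast, the RNA that hosts the miR-302 and miR-367 precursors, listed as AC106864.1 (chromosome 4, 112646476 to 112650051, minus strand), was at 1555 FPKM in BC1 and still at 726 FPKM in APLNR+, a difference of -1.10. In CD31+CD34+ cells it was at 2.73 FPKM and in CD43+ cells at 0.130 FPKM. The microRNAs themselves were not measured. Their mature 3p strands from RefSeq are given because this host encodes them, with the seed (bases 2 to 8) in capitals. The 4 miR-302 sequences share a seed, which differs from that of miR-367.
miR-302a-3p: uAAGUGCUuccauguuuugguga
miR-302b-3p: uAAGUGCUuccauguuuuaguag
miR-302c-3p: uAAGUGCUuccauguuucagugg
miR-302d-3p: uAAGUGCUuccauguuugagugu
miR-367-3p: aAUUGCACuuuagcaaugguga
They lie between 112647877 and 112648511 on chromosome 4, within the host. The host of the miR-17 to miR-92 cluster, MIR17HG, was at 14.6 FPKM in BC1 and 3.26 FPKM in APLNR+. Of 9 microRNA host genes compared, all were lower in APLNR+, 4 of them by at least 1, where 10.3% of all genes were lower by that much. The smallest differences were -0.18 (MIR22HG) and -0.26 (MIR205HG), and the median over all genes was -0.007. These 9 were AC106864.1 and genes with symbols that start with MIR and end with HG, so other microRNA hosts are not covered.

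Among chromatin genes, members of the same complex differed in direction or size of change. PHC1, a subunit of Polycomb complex PRC1, fell from 452 to 47.4 FPKM, a ratio of 9.54 (8.59 to 10.6). Its paralog PHC2 rose from 3.52 to 24.5 FPKM and stayed below PHC1. JARID2, a cofactor of PRC2, fell from 75.2 to 12.6 FPKM, while the PRC2 core genes EZH2 (22.6 and 22.2 FPKM), SUZ12 (9.99 and 9.96 FPKM) and EED (12.7 and 13.97 FPKM) had ratios whose intervals included 1. The de novo DNA methyltransferase DNMT3B fell from 513 to 124 FPKM and DNMT3A was at 80.2 and 41.2 FPKM. KDM6B, an H3K27 demethylase, rose from 0.806 to 13.5 FPKM. Of 34 DNA methylation and Polycomb genes, 2 rose and 3 fell. Of 39 remodelers and histone variants, 1 rose and 1 fell, near the shares over all genes (2.97% and 2.54%). H2AFY2, a macroH2A variant, rose from 12.1 to 159 FPKM, and PRDM14, a repressor of pluripotent cells, fell from 28.8 to 2.62 FPKM. Among 30 RNA-binding proteins, RBM24, a splicing factor of muscle, was listed at 0 in BC1 and at 14.8 FPKM in APLNR+, a rise of at least 125-fold against the floor of 3 fragments. ESRP1 and RBM47 (36.6 to 5.70 FPKM), both splicing factors of epithelia, fell. LIN28A was at 363 and 158 FPKM and LIN28B at 26.2 and 28.0 FPKM.

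For the metabolic groups, the shares over all genes were 2.97% that rose and 2.54% that fell. A count of 0 or 1 in lists of this size is near those shares. Of 32 glycolysis and pyruvate genes, 1 rose and none fell, with a median of 0.08. SLC16A3, which exports lactate, rose from 7.78 to 63.8 FPKM. PKM, pyruvate kinase, was at 501 and 1635 FPKM, a ratio of 3.27 (3.21 to 3.33), and the glucose transporter SLC2A1 was at 260 and 70.0 FPKM. Of 21 hypoxia-responsive genes, 3 rose and 2 fell, above the shares over all genes (2.97% and 2.54%) in both directions, since CA12 (1.49 to 35.1 FPKM), BHLHE40 (0.680 to 21.0 FPKM) and EGLN3 (7.81 to 51.2 FPKM) rose while ADM and KISS1R (3.99 to 0.0685 FPKM) fell. No cholesterol synthesis gene of 26 passed the limit, and MVD, of the mevalonate pathway, was at 65.5 and 152 FPKM. In fatty acid synthesis, ACSS2, which makes acetyl-CoA from acetate, rose from 9.69 to 56.9 FPKM. Of 33 serine, folate and amino acid genes, 3 fell, namely GLDC, of the glycine cleavage system (37.4 to 4.51 FPKM), SLC7A8, an amino acid transporter (75.4 to 15.5 FPKM), and CKMT1A, a mitochondrial creatine kinase with a near-identical copy, whose value is uncertain. Among 15 metallothionein and iron genes 3 rose. SLC40A1, the iron exporter ferroportin, rose from 0.462 to 11.3 FPKM, as did MT1G and MT1H, whose family members are similar in sequence and share reads. None of 46 cytosolic ribosomal protein genes, 37 replication and mitosis genes, 35 cyclin and CDK genes or 29 p53 and cell death genes passed the limit. The medians of these lists were -0.20, -0.06, 0.18 and -0.02. Within them CDK6 (2.87 and 13.4 FPKM) and CCND3 (18.2 and 56.1 FPKM) were higher in APLNR+.

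Among 27 MHC class I and interferon genes, 2 rose and 1 fell, where 2.97% and 2.54% of all genes did. By at least 1, 2 were higher and 7 lower, against 10.1% and 10.3% of all genes. The median was -0.20. The interferon-inducible genes OAS1 (0.326 to 17.4 FPKM) and IFI16 (0.289 to 12.8 FPKM) rose, whereas PSMB8, a subunit of the immunoproteasome, fell from 9.30 to 1.31 FPKM and IFITM2 was at 205 and 61.6 FPKM. Of 19 imprinted genes, 1 rose and 1 fell, counts near the shares over all genes. PEG10 rose from 35.0 to 165 FPKM and SNURF, which shares its locus with SNRPN and is therefore uncertain, fell from 26.0 to 4.84 FPKM.

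Over the 54 lists, 9 had a median difference of at least 1, 5 had a median of -1 or less and 40 lay between. These medians cover only genes with 1 FPKM in either library, some of which passed through APLNR+ alone. Without that filter 4 lists had a median of at least 1 and 4 a median of -1 or less. In 30 of the 54 lists at least 1 gene rose and at least 1 fell, so that a median near 0 often covered opposite differences, as in the cadherins (median 0.17) and the guidance genes (median 0.24).

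**Figure D4:**
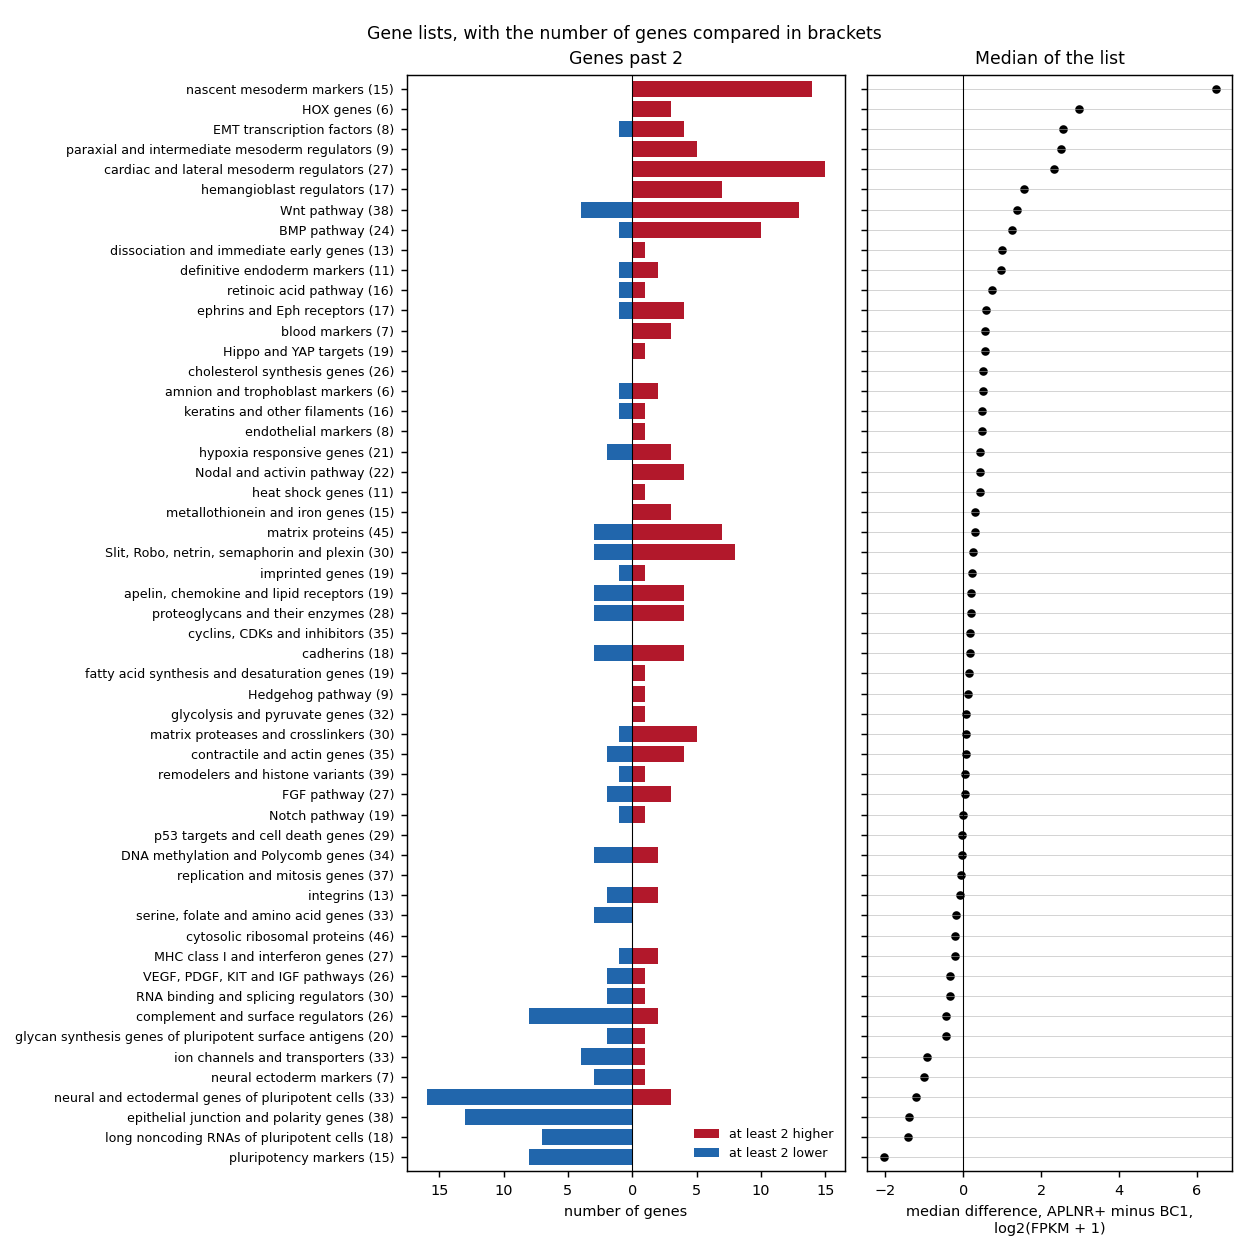
Left, number of genes of each of 54 lists that rose (red, to the right) or fell (blue, to the left) by at least 2, with the number compared in brackets; right, median difference of the list, APLNR+ minus BC1, on the log2(FPKM + 1) scale. Mesoderm lists are at the top and pluripotency and epithelial lists at the bottom, and many lists between have bars on both sides.

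The values of the 30 genes with the largest differences in the later libraries are given as levels only, without a further comparison. Some genes that rose were low again at day 5. CER1 was at 0.0905 FPKM in CD31+CD34+, GRP was listed at 0, CYP26A1 was at 0.0830 FPKM and MFAP4 at 0.264 FPKM. Others stayed high, as BMPER at 136 FPKM, APLNR at 209 FPKM and GATA6 at 57.8 FPKM in the same library. Of the genes that fell, SFRP1 had 41.6 FPKM in CD31+CD34+ cells and 24.7 FPKM in CD43+ cells, and ITGA6 was at 9.55 FPKM in CD43+.

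**Figure D5:**
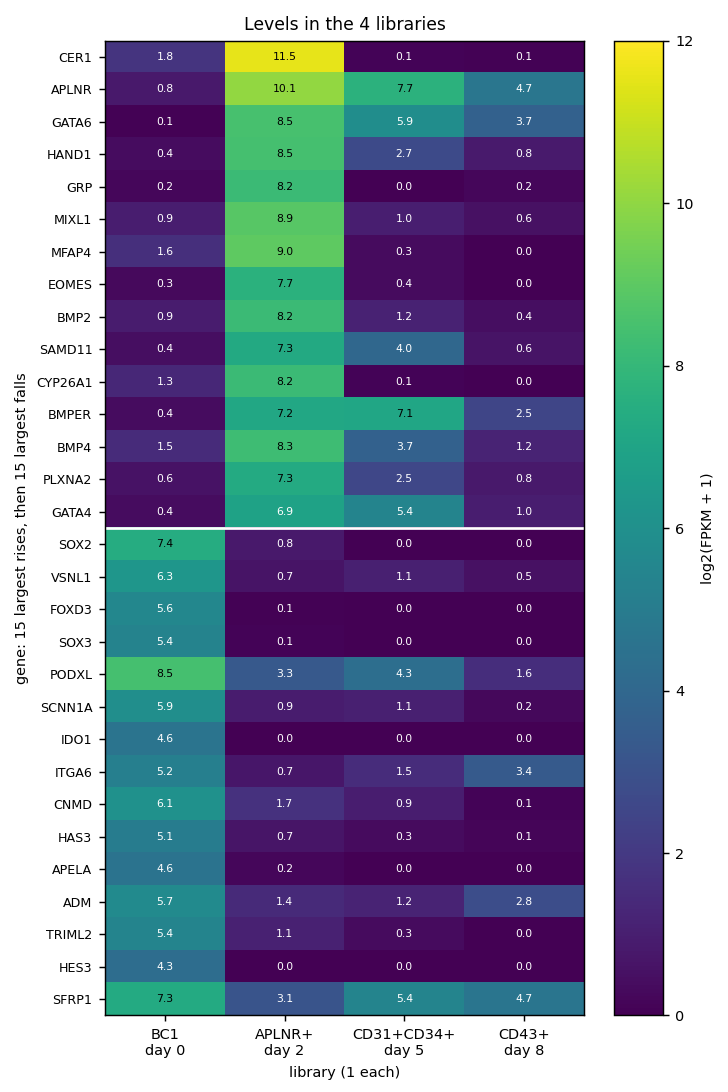
Levels of the 15 genes with the largest rise and the 15 with the largest fall, as log2(FPKM + 1), in the 4 libraries of BC1, APLNR+, CD31+CD34+ and CD43+, 1 library each. CER1, MFAP4 and CYP26A1 are bright in the APLNR+ column only, whereas BMPER, APLNR and GATA6 are bright at day 5 too.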

How the data were processed

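RNA sequencing was done by the authors on total RNA of 4 populations, 1 library each, and the 2 libraries of BC1 and APLNR+ cells were compared here. The table deposited by the authors holds FPKM values per gene, a unit named in the study's box plots and matched by the values. The submitters' processing notes name BWA, Bowtie, RSEM and hg19 without their roles, but the gene positions in the table match GRCh38 and GENCODE release 29, and whether counting used strand is not given in the sources used here. Of 58274 gene identifiers, 58011 (99.5%) were found in GENCODE, and 90 were on more than 1 row and were summed. Mitochondrial genes took 7.71% of FPKM in BC1 and 5.82% in APLNR+.

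Differences of log2(FPKM + 1) understate the change of low genes, and limits of 2 and 1 replace a test. Fragments were estimated from FPKM steps of genes with transcripts of at least 1000 bases, where 95.1% (BC1) and 95.3% (APLNR+) of 1683 and 1770 low values lay within 0.1 of a whole number. Fragments of a gene use its median transcript length and are approximate. Ratios have exact Clopper-Pearson 95% intervals, with a floor of 3 fragments per library. No count model was run, because the values are not counts. The scripts were tested on simulated data.

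The members and the 54 gene lists were chosen with earlier results of these data known. Named genes were the 4 stage markers, the 15 protein-coding genes with the largest rise and the 15 with the largest fall among those that reached 10 FPKM in either, up to 5 in each direction per list among genes that differed by at least 1, and further family members where a family is described. Genes next to a limit, miRNA hosts, genes with printed sequences and MIR17HG were chosen after their values were seen. Alternatives were a pseudocount of 0.1, no filter, a filter of 5 FPKM, a limit of 1, scaling of APLNR+ by 0.964, protein-coding genes only, the highest row of an identifier and the mean of a list. A few genes are not reported here by name, in the text or the figures, but stay in the counts. Motif letters were counted in RefSeq sequences of GRCh38.p14. Python 3.11.15, numpy 2.4.6, pandas 2.3.3, scipy 1.17.1 and matplotlib 3.10.9 were used.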

Additional observations from a re-analysis of the deposited data

How the results depend on the processing

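With a pseudocount of 0.1 in place of 1, 918 genes rose and 1025 fell by at least 2, against 460 and 393, because this scale widens the differences of low genes. With a limit of 1, 1568 genes were higher and 1597 lower. With this pseudocount the median of the nascent mesoderm markers was 8.21 (6.48 with 1), that of the HOX genes 5.58 (2.96 with 1) and that of the ion channels and transporters -1.15 (-0.92 with 1). Without the filter of 1 FPKM, which adds HOX genes near 0, the HOX median was 0.18, that of the paraxial and intermediate mesoderm genes 0.14 (2.52 with it), that of the Wnt pathway 0.46 (1.39) and that of the neural ectoderm markers -0.11 (-1.01), and 4 lists instead of 9 had a median of at least 1. With a filter of 5 FPKM the median of the amnion and trophoblast markers was 4.44 (0.52) and that of the blood markers 2.53 (0.57). The other alternatives moved the 2 counts by less than 1.5 times, and the other list medians stayed within the 95% order-statistic interval of their list. No paired analysis was possible because each population had 1 library and the labels give no replicate numbers. A library could not be left out for the same reason. Variation between cultures, sorts and sequencing runs is unknown. Genes near 1 FPKM rest on few fragments when their transcripts are short.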

Other observations

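By gene type, 381 of 13077 protein-coding genes rose and 291 fell. Among 432 lincRNAs the balance was the other way, with 18 that rose and 33 that fell, and among 582 antisense genes 17 rose and 17 fell. The antisense genes that rose included neighbours of protein-coding genes that rose, namely GATA6-AS1 (0.228 to 174 FPKM) beside GATA6, and WNT5A-AS1 (1.05 to 60.7 FPKM) beside WNT5A. HAS2-AS1, annotated as a processed transcript, was at 1.33 and 75.4 FPKM beside HAS2. Whether their reads can be separated from those of the sense genes was not tested.

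Among all gene types, the highest difference was that of AL645608.4, a processed pseudogene on chromosome 1 (1008076 to 1008229), which was listed at 0 in BC1, CD31+CD34+ and CD43+ and at 943 FPKM in APLNR+. PDIA3P2, an unprocessed pseudogene, was likewise listed at 0 in the other 3 libraries and at 466 FPKM in APLNR+. No number of fragments was estimated for either of these short transcripts, and both were named after their values were seen.

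Genes outside the lists were also among the large rises. WLS, which carries Wnt proteins to the cell surface, was at 1.04 FPKM in BC1 and 160 FPKM in APLNR+. HAPLN1, a hyaluronan link protein, was at 0.606 and 75.4 FPKM, in contrast to HAPLN3, which fell. APOBEC3G, an antiviral cytidine deaminase, was at 0.618 and 46.4 FPKM. TRIM22, an interferon-inducible antiviral protein, was at 38.0 FPKM in BC1 and 1.23 FPKM in APLNR+. These genes were named after their values were seen.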
